A study of Mus musculus with 6 samples.

Results

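The genes described here encode Toll-like receptors (TLRs) with their co-receptors and adaptors. They were taken by name as a list of 10, among 18506 genes tested. They are the receptors *Tlr1*, *Tlr2*, *Tlr6*, *Tlr4*, *Tlr8* and *Tlr13*, the co-receptors *Cd14* and *Ly96*, and the adaptors *Myd88* and *Ticam1*. All 10 were found in the 6 libraries and passed the filter of at least 10 counts in total. Bone marrow–derived macrophages (BMDMs) from WT and Drp1 KO mice, 3 libraries per genotype, were compared after 8 hours of hypoxia serum starvation (HSS), a culture model of ischemia. At day 7 of culture the medium was exchanged for a serum-free starvation medium at low oxygen (2.1% in the labels and 2% in the methods), and every library received HSS. The Drp1 KO mice were LysM-Cre+/– Drp1 fl/fl and the WT mice LysM-Cre+/– Drp1+/+, so both groups carried Cre under the lysozyme M promoter, which drives it in myeloid cells. The study used mice of both sexes aged 8 to 12 weeks and pooled marrow from 2 mice per genotype. A legend describes the experiment as mice with n = 3 per group, and whether each library came from a pool of its own is not given in the sources used here, so the p-values below measure the spread between these libraries, which may be technical.

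TLRs are innate immune receptors that macrophages use to detect microbial molecules. At the cell surface TLR2 works together with TLR1 or with TLR6 to recognise bacterial lipopeptides, and TLR4 bound to MD-2, the product of *Ly96*, recognises lipopolysaccharide handed over by CD14. TLR8 and TLR13 act in endosomes, where TLR13 of the mouse detects bacterial ribosomal RNA, so these genes are not surface receptors. MyD88 carries the signal of all these receptors to IRAK kinases and NF-κB, and TRIF, the product of *Ticam1*, serves TLR4 and TLR3 and leads to type I interferon.

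The libraries held 23389488 to 32231206 estimated reads. *Dnm1l*, the gene of DRP1, was at 72.7, 69.9 and 75.1 CPM (estimated counts per 1e+06 of the normalized library size) in WT libraries and at 58.7, 60.7 and 66.3 CPM in those labelled Drp1 KO, and the groups did not overlap. These gene totals do not show whether the floxed part of the gene was read. The macrophage markers *Adgre1* and *Csf1r* were abundant in each library, at 1210 CPM or more and 576 CPM or more. Of 6 macrophage markers *Fcgr1* was higher and *Csf1r* and *Mertk* were lower in Drp1 KO BMDMs (adjusted p = 0.000322, 0.034 and 0.0236). Of 8 neutrophil markers, *Ly6g* was at 0 in every library and none of the 6 that could be tested had an adjusted p under 0.05, but their summed level was 6.86 to 21.1 CPM in WT and 20.5 to 48.4 CPM in Drp1 KO libraries, and 4 passed once same-numbered libraries were paired. Summed markers of dendritic cells, T cells and fibroblasts stayed at or under 8.40 CPM in every library, with *Cd209a* at 0 throughout. The 3 B cell markers tested summed to 3.54 to 5.61 CPM in WT and, without overlap, to 5.63 to 6.81 CPM in Drp1 KO libraries, and none of them passed the test. Neutrophils also express several TLR genes, *Cd14* and *Myd88*, and the part of these cells or of B cells in the values below was not tested. In such bulk RNA, a smaller share of a cell type and less RNA per cell cannot be told apart.

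Among the 10 genes, *Tlr1* alone had an adjusted p under 0.05, and it was higher in Drp1 KO BMDMs. Of all genes tested, 3.36% passed that threshold, 2.29% higher and 1.06% lower (edgeR's quasi-likelihood test, Benjamini-Hochberg adjustment). The log2 fold change (log2 FC, Drp1 KO over WT, with its standard error, SE) had a median of 0.13 over the 10 genes, with 7 above 0 and 3 below, against a median of 0.005 over all genes. The study's own criteria ask for a level more than 25% higher or 20% lower and for p under 0.05 before adjustment, there with DESeq2. Applied here to the edgeR fit, they called 3 of the 10, *Tlr1* and *Tlr8* higher and *Tlr2* lower, beside 12.7% of all genes, 7.19% higher and 5.48% lower. CPM did not overlap between the genotypes for 2 of the 10, *Tlr1* and *Tlr13*, both higher in Drp1 KO, and for 21.9% of all genes, 11.7% higher and 10.3% lower. Libraries carry the numbers 1 to 3 in both groups, and once same-numbered libraries were paired 4 of the 10 passed, *Tlr1*, *Tlr8* and *Tlr13* higher and *Tlr2* lower, beside 12.0% of all genes in that fit. No source used here says that the numbers mark a shared animal or day. The pairs were judged on the same values that were then tested, so each paired call below carries this limit.

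**Figure D1:**
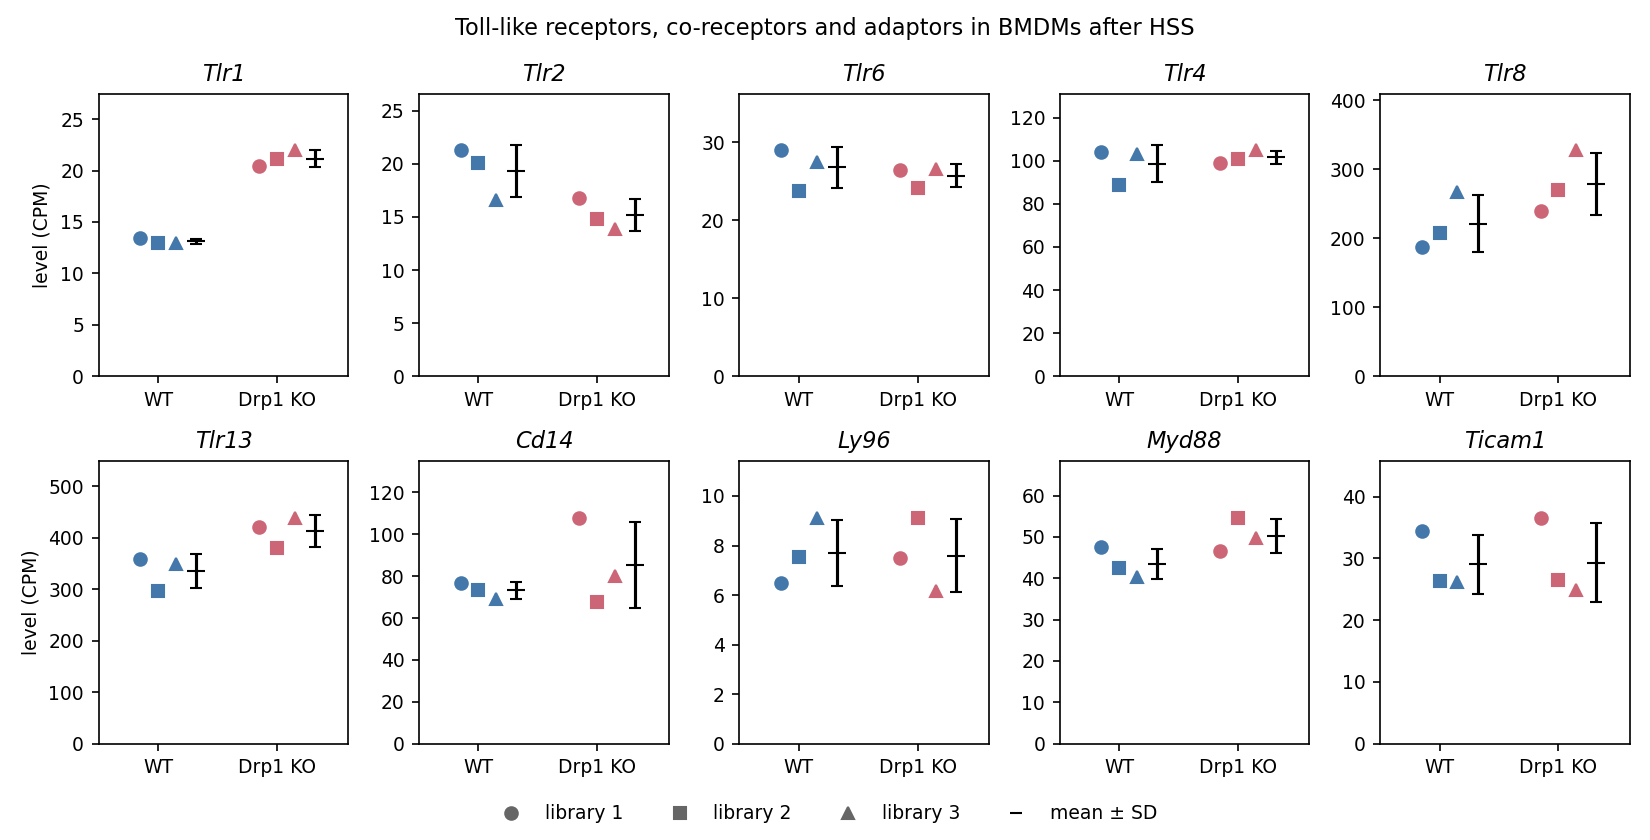
Level of each of the 10 genes in CPM (linear axis from 0) in the 3 WT and 3 Drp1 KO libraries, with the mean and SD at the right of each group and the marker shape giving the library number. The Drp1 KO libraries lay above all WT libraries for Tlr1 (20.4 to 22.0 against 13.0 to 13.4 CPM) and Tlr13, and the groups overlapped for the other genes.

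Per transcript length, as the deposited TPM gives it, the endosomal receptors stood first in both groups. *Tlr8* averaged 174 ± 43.1 TPM and *Tlr13* 142 ± 16.4 TPM in WT BMDMs (SD, n = 3 each). *Cd14* followed at 65.6 ± 1.05 TPM and *Tlr4* at 44.5 ± 5.20 TPM. *Ly96* and *Myd88* came next at 31.6 ± 7.48 and 30.9 ± 1.87 TPM. *Tlr6* at 22.6 ± 4.83 TPM, *Ticam1* at 12.1 ± 1.72 TPM, *Tlr1* at 10.6 ± 0.820 TPM and *Tlr2* at 9.31 ± 0.776 TPM closed the order. Over the WT libraries the ranges of *Tlr8* and *Tlr13*, *Tlr4* and *Ly96*, *Ly96* and *Myd88*, *Ticam1* and *Tlr1*, and *Tlr1* and *Tlr2* overlapped, and the other neighbours in the order were apart. The first place of *Tlr8* rests on a short transcript. *Tlr8-203*, 485 bases long, held 3.15% to 4.99% of its estimated counts and 23.2% to 35.9% of its TPM, and the main transcript *Tlr8-202* alone averaged 117 TPM in WT, below *Tlr13-201* at 139 TPM. The first gene stood 18.7 times above the last in WT and 31.4 times in Drp1 KO BMDMs. In Drp1 KO BMDMs the order differed in that *Myd88* came before *Ly96* and *Tlr1* before *Ticam1*, both with overlapping ranges, while *Tlr1* and *Tlr2* no longer overlapped.

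**Figure D2:**
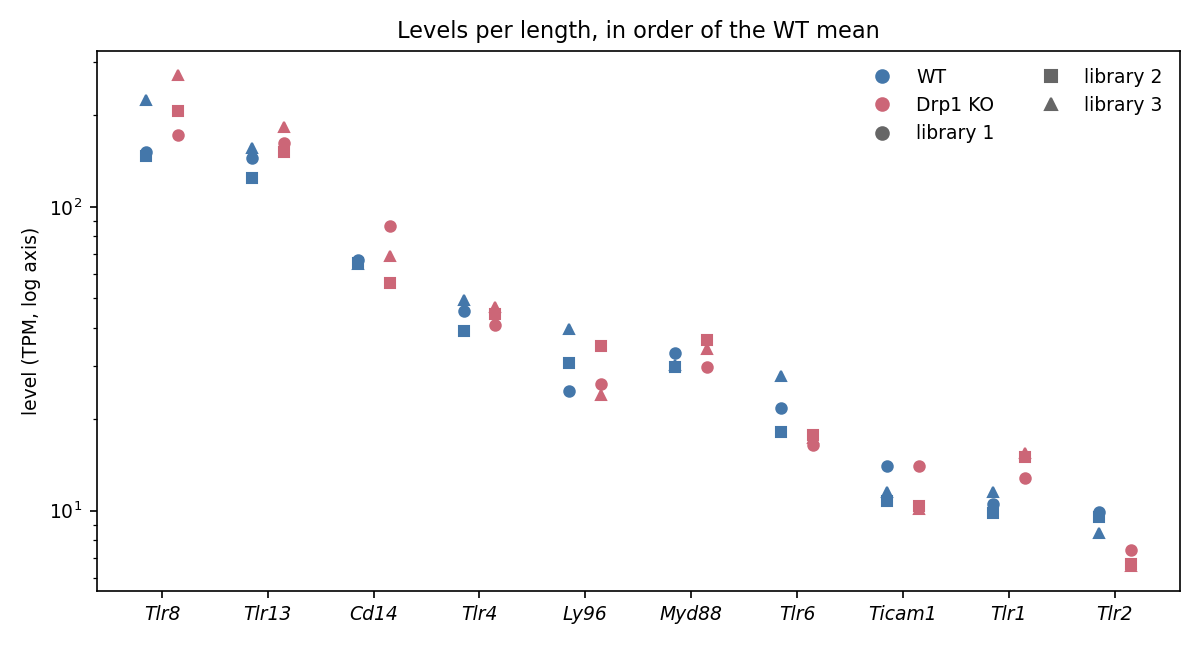
Level of each gene per transcript length (TPM, log axis) in the 3 WT and 3 Drp1 KO libraries, ordered by the WT mean. Tlr8 and Tlr13 lay above 120 TPM in every library and Tlr2 lay lowest in both groups, at 9.31 TPM in WT and 6.90 TPM in Drp1 KO BMDMs on average.

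*Tlr1*, the receptor that joins TLR2 in recognising triacylated lipopeptides, rose in Drp1 KO BMDMs. The gene (ENSMUSG00000044827) lies on the minus strand of chromosome 5 (GRCm39), spanning 65082022 to 65090941. It stood at 13.4, 13.0 and 13.0 CPM in WT libraries 1 to 3 and 20.4, 21.1 and 22.0 CPM in Drp1 KO libraries 1 to 3. In CPM the 3 libraries of each genotype lay close together and the genotypes were far apart. In TPM the groups did not overlap either, but lay nearer to each other. *Tlr1* was there at 9.83 to 11.5 TPM in WT and 12.8 to 15.5 TPM in Drp1 KO libraries, with means of 10.6 and 14.4 TPM. From the counts, the log2 FC was 0.69 (SE 0.107, adjusted p = 0.00726, edgeR), a 1.61-fold difference. Under other settings the estimate stayed positive, from 0.53 to 0.71, and 12 of 15 settings kept an adjusted p under 0.05. The call was lost without WT library 2 (adjusted p = 0.0672), without WT library 3 (0.0593) and with length-scaled counts (0.0718).

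*Tlr1* and its neighbour *Tlr6* (chromosome 5, 65108704 to 65203497, minus strand) are close copies, which bears on how reads were assigned. Their coding sequences are each 2385 bases long in the GRCm39 annotation, 73.3% of the aligned bases are identical, and 25.6% of the 31-base words of the *Tlr1* coding sequence also occur in that of *Tlr6*. The longest stretch without a difference is 229 bases, chr5:65082880-65083108 in *Tlr1* and chr5:65111171-65111399 in *Tlr6*, both in the coding part of the last exon and on the minus strand, and is printed because a read within it fits both genes:

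*Tlr1* and *Tlr6*, shared stretch: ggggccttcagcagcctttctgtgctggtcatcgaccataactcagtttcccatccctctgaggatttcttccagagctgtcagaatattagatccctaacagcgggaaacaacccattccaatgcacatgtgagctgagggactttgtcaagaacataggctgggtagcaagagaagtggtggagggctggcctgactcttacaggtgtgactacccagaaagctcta

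Such reads are divided by kallisto according to the reads that fit 1 gene only. *Tlr6*, which joins TLR2 in recognising diacylated lipopeptides, was at 29.0, 23.8 and 27.5 CPM in WT and 26.5, 24.1 and 26.6 CPM in Drp1 KO libraries. The groups overlapped and the log2 FC was -0.06 (SE 0.112, adjusted p = 0.88, edgeR). In TPM, however, *Tlr6* was 21.8, 18.1 and 27.7 in WT and 16.5, 17.7 and 17.3 in Drp1 KO libraries, without overlap. The annotated transcript *Tlr6-202*, 446 bases long, held 1.88% to 7.00% of the estimated counts of the gene but 17.4% to 45.1% of its TPM. With length-scaled counts the log2 fold change of *Tlr6* was -0.30 (adjusted p = 0.36, edgeR).

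The estimated counts of *Tlr1* were divided over 3 transcripts. *Tlr1-201* and *Tlr1-202* have the same coding exon and different first exons, with start sites 821 bases apart, and *Tlr1-203* is short and has no defined coding sequence. *Tlr1-201* was estimated at 6.21, 2.16 and 6.96 CPM in WT and 10.6, 12.8 and 14.2 CPM in Drp1 KO libraries. *Tlr1-202* was estimated at 6.52, 10.3 and 5.45 CPM in WT and 9.34, 7.60 and 7.28 CPM in Drp1 KO libraries. The estimates of *Tlr1-201* did not overlap between genotypes and those of *Tlr1-202* did. Only 95 of the 31-base words of *Tlr1-201* and 27 of those of *Tlr1-202* occur in no other transcript of the annotation, and in WT library 2 the split between them was unlike that in the other WT libraries, while their sum was not. The estimates carry no error in the files and the transcripts were not tested.

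**Figure D3:**
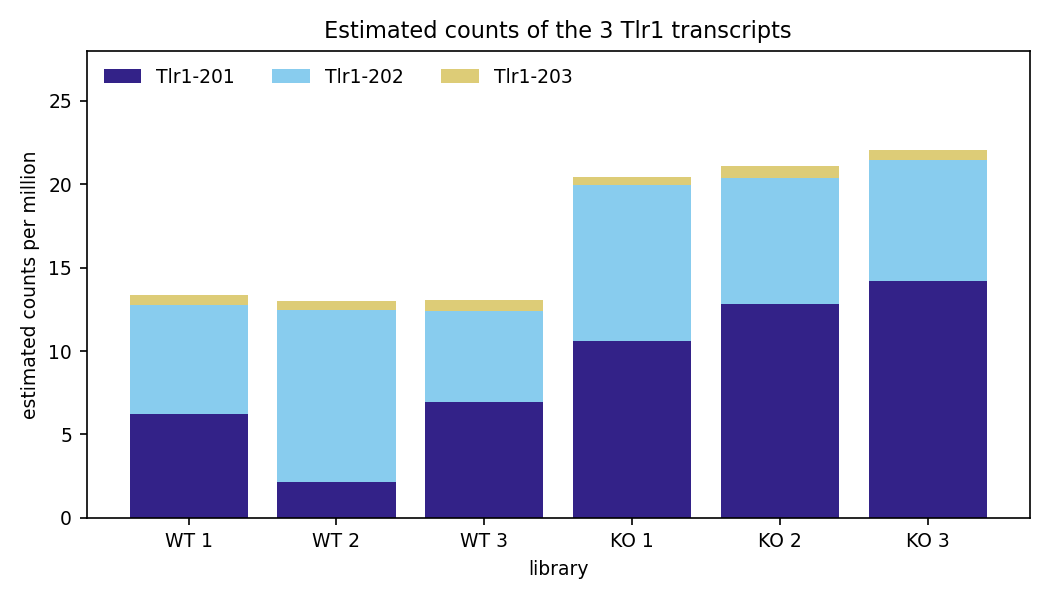
CPM of the 3 Tlr1 transcripts in each library, stacked (linear axis from 0). The sum was 13.0 to 13.4 in WT libraries and 20.4 to 22.0 in those of Drp1 KO (KO), and the dark part, Tlr1-201, was 2.16 to 6.96 in WT libraries and 10.6 to 14.2 in the others.

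The 250 bases before these *Tlr1* start sites and before that of *Tlr2*, shown because *Tlr1* passed the test and TLR2 is its partner, are printed from the GRCm39 genome in the direction of transcription, each on the minus strand. Capitals mark matches, on either strand, to the interferon-gamma activated site TTCNNNGAA (GAS), the interferon-stimulated response element (ISRE), read as GAAA, any 2 bases and GAAA again, the NF-κB consensus and the PU.1 core GAGGAA:

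*Tlr1-201*, chr5:65090105-65090354: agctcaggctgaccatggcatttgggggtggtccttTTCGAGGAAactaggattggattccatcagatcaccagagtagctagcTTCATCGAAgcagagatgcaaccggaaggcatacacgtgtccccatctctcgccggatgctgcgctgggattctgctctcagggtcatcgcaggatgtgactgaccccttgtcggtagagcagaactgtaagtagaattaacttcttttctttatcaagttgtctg
*Tlr1-202*, chr5:65090926-65091175: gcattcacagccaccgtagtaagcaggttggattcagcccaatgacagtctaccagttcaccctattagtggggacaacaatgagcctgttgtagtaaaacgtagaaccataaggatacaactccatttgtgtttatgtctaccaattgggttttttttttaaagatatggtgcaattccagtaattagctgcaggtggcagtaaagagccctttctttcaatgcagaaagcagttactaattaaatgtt
*Tlr2-201*, chr3:83749075-83749324: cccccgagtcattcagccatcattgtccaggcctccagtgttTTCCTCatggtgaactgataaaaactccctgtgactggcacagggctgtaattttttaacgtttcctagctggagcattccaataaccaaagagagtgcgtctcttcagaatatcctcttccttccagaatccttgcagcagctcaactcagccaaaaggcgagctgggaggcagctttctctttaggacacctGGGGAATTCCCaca

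Before *Tlr1-201* there were 2 GAS matches, one of them overlapping a PU.1 core, and 2 overlapping matches to the hypoxia response core ACGTG, which are left in lower case. The window before *Tlr1-202* held none of these motifs. Before *Tlr2-201* lay 2 overlapping NF-κB matches, 4 to 14 bases from the start site, and a PU.1 core farther away. Windows of the same length were searched for 15921 protein-coding genes tested, each before the transcript that the annotation marks canonical. Of these windows, 6.84% held a GAS match, 3.25% an ISRE match, 8.03% an NF-κB match, 23.3% a PU.1 core and 19.2% an ACGTG. For *Tlr1* the canonical transcript is *Tlr1-202*, and the window before *Tlr1-201* was searched in addition. No window of the 10 genes held an ISRE match, and besides *Tlr1-201* a GAS match was found for *Tlr8* and *Cd14*. A match is a run of letters and not a bound site.

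*Tlr2*, the shared partner of TLR1 and TLR6 (ENSMUSG00000027995, chromosome 3, 83743576 to 83749074, minus strand), was at 21.3, 20.1 and 16.6 CPM in WT and 16.8, 14.8 and 13.9 CPM in Drp1 KO libraries. Libraries 1 were highest and libraries 3 lowest in both groups, and the lowest WT library lay just under the highest Drp1 KO library. The log2 FC was -0.35 (SE 0.135, adjusted p = 0.223, edgeR). With same-numbered libraries as pairs it fell by 0.35 on the log2 scale with an adjusted p of 0.0377, and in TPM, at 8.44 to 9.93 and 6.57 to 7.43, the groups did not overlap. None of the other 14 settings gave an adjusted p under 0.05.

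The genes of this receptor complex were compared as the ratio of TPM in each library, which is a ratio of mRNA and not of protein. *Tlr1* stood at 0.482, 0.542 and 0.414 of *Tlr6* in WT and at 0.776, 0.846 and 0.898 in Drp1 KO libraries. *Tlr1* stood at 1.06, 1.03 and 1.36 of *Tlr2* in WT and at 1.72, 2.23 and 2.36 in Drp1 KO libraries. The 419 bases of *Tlr1-203*, which has no defined coding sequence, gave 19.2% to 34.0% of the TPM of *Tlr1* from 2.32% to 4.75% of its counts. In CPM *Tlr1* stood at 0.629, 0.646 and 0.784 of *Tlr2* in WT and at 1.21, 1.43 and 1.58 in Drp1 KO libraries, so which gene was higher in WT depends on the unit. The ratios of *Tlr1* to *Tlr6* and to *Tlr2* were higher in every Drp1 KO library than in every WT library. The difference was 1.76-fold and 1.83-fold in TPM (exact permutation test, two-sided p = 0.1 each, the smallest that 3 against 3 libraries allow, and 0.3 adjusted over 6 ratios). In CPM it was 1.67-fold and 2.05-fold. The TPM of *Tlr6* includes the short *Tlr6-202*, at 8.13 ± 3.86 TPM in WT and 3.68 ± 1.16 TPM in Drp1 KO BMDMs. In TPM the ratio of *Tlr6* to *Tlr2*, at 1.90 to 3.28 and 2.22 to 2.64, overlapped between the groups, as did those of *Cd14* to *Tlr4*, *Ly96* to *Tlr4* and *Myd88* to *Ticam1*, with exact two-sided p-values of 0.5 to 0.9.

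**Figure D4:**
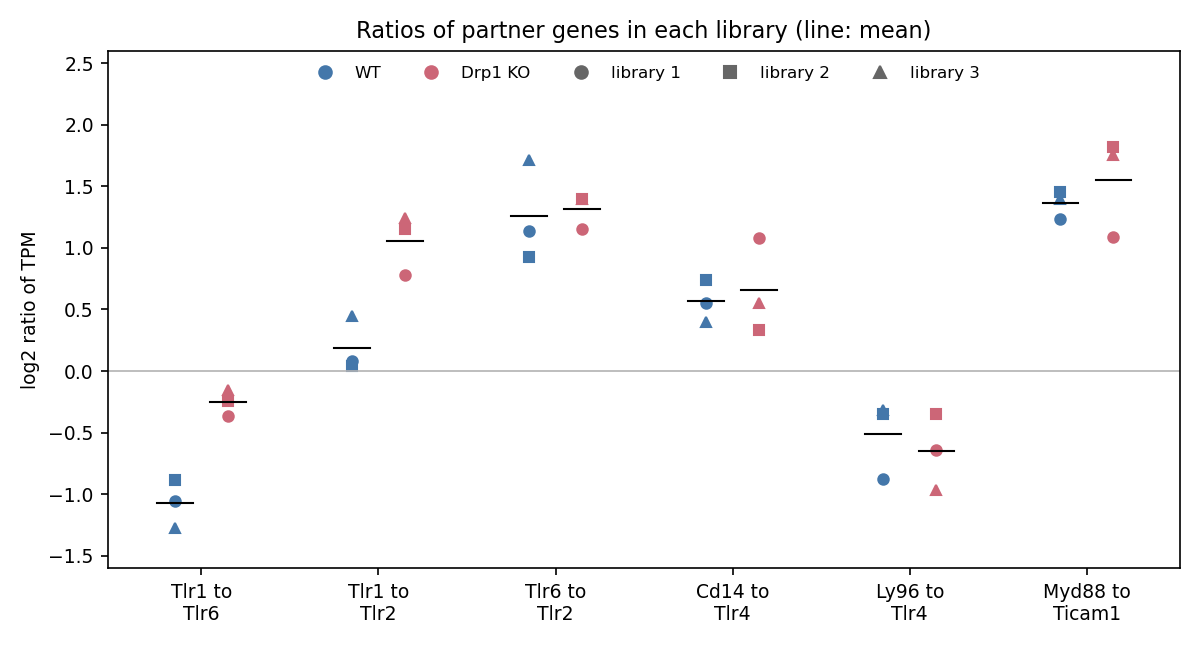
Log2 ratio of TPM of 6 pairs of genes in each of the 3 WT and 3 Drp1 KO libraries, with a line at the group mean. The ratios of Tlr1 to Tlr6 (means -1.07 and -0.25) and of Tlr1 to Tlr2 (0.19 and 1.06) were higher in every Drp1 KO library, and the other 4 overlapped.

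The lipopolysaccharide receptor showed no difference past the test. *Tlr4* (ENSMUSG00000039005, chromosome 4, 66745783 to 66849936) was at 104, 88.7 and 103 CPM in WT and 98.8, 101 and 105 CPM in Drp1 KO libraries, a log2 FC of 0.05 (SE 0.0951, adjusted p = 0.874, edgeR). *Cd14*, which delivers the ligand (ENSMUSG00000051439, chromosome 18, 36858120 to 36859851), was at 76.9, 73.5 and 69.1 CPM in WT and 108, 67.8 and 80.3 CPM in Drp1 KO libraries. Drp1 KO libraries 1 and 3 lay above every WT library and library 2 below, with library 1 far above the rest, and the log2 FC of 0.22 (SE 0.151, adjusted p = 0.547) became 0.0072 without library 1 of Drp1 KO. *Ly96* (ENSMUSG00000025779, chromosome 1, 16758275 to 16779961) was the least covered of the 10, with 150 to 298 counts per library. Its level was 6.47, 7.53 and 9.13 CPM in WT and 7.49, 9.10 and 6.16 CPM in Drp1 KO libraries, a log2 FC of -0.03 (SE 0.19) whose sign turned when WT library 3 or Drp1 KO library 3 was left out (0.10 and 0.11).

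The endosomal receptors were higher on average in Drp1 KO BMDMs, and passed the test only with libraries paired by number. *Tlr13* (ENSMUSG00000033777, chromosome X, 105186810 to 105204533) was at 359, 297 and 348 CPM in WT and 421, 379 and 439 CPM in Drp1 KO libraries. Each Drp1 KO library exceeded all WT libraries, and library 2 was the lowest in both groups. In TPM, at 124 to 156 and 152 to 183, the groups overlapped. The log2 FC was 0.30 (SE 0.107, adjusted p = 0.181, edgeR), with an adjusted p of 0.0175 for the pairs. *Tlr8* (ENSMUSG00000040522, chromosome X, 166024184 to 166047325), a receptor for RNA breakdown products, was at 188, 208 and 267 CPM in WT and 239, 270 and 328 CPM in Drp1 KO libraries. Within each group library 1 was lowest and library 3 highest, the groups overlapped, and each Drp1 KO library exceeded the WT library of its number. The summed neutrophil markers were also lowest in library 1 of each group, where they summed to 6.86 CPM (WT) and 20.5 CPM (KO), and their part in the result was not tested. The log2 FC was 0.34 (SE 0.152, unadjusted p = 0.04999, adjusted p = 0.304, edgeR), and 0.34 with a standard error of 0.069 and an adjusted p of 0.0096 for the pairs.

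The adaptors did not pass the test in either fit. *Myd88* (ENSMUSG00000032508, chromosome 9, 119165000 to 119170486) was at 47.5, 42.4 and 40.4 CPM in WT and 46.5, 54.7 and 49.8 CPM in Drp1 KO libraries, a log2 FC of 0.21 (SE 0.106, adjusted p = 0.358, edgeR). WT library 1 lay above Drp1 KO library 1, so the groups overlapped. In the annotation 628 of its 3888 exonic bases are shared with *Acaa1a* on the opposite strand. The labels name a stranded library kit and the methods of the study a TruSeq kit not called stranded. Whether strand was used in counting is not given in the sources used here, so *Acaa1a* reads in the value of *Myd88* cannot be told apart. *Ticam1* (ENSMUSG00000047123, chromosome 17, 56576319 to 56583786) was at 34.5, 26.4 and 26.2 CPM in WT and 36.6, 26.5 and 24.8 CPM in Drp1 KO libraries. Libraries 1 were high in both groups and the log2 FC was 0.01 (SE 0.167).

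**Figure D5:**
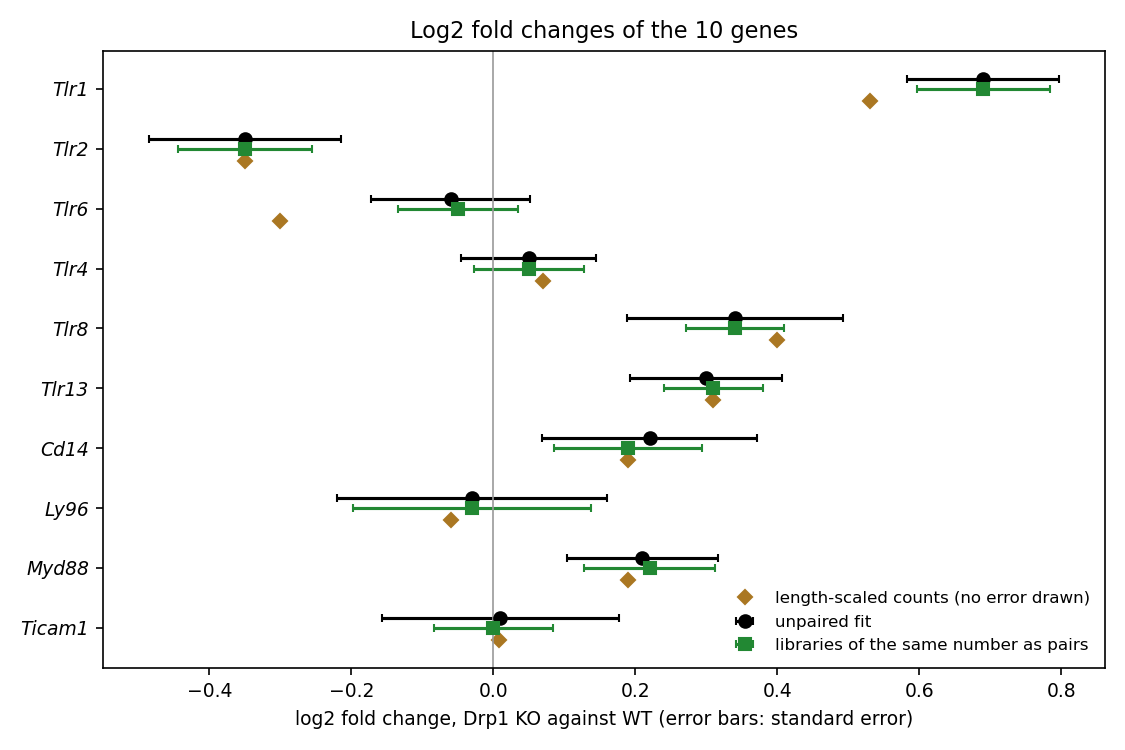
Log2 fold change of Drp1 KO against WT BMDMs for each of the 10 genes without pairing (circles) and with libraries of the same number as pairs (squares), with standard errors, and with length-scaled counts (diamonds). Tlr1 lay at 0.69 in both fits and at 0.53 with length-scaled counts, and the standard errors of Tlr8, Tlr13 and Tlr2 were smaller with pairing, at estimates of 0.34, 0.31 and -0.35.

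Of 39 other genes of the pathway, 3 passed the test, where 3.36% of all genes did. *Cd180*, a TLR homologue that lacks the signalling domain, rose from 204 ± 11.9 CPM in WT to 293 ± 6.46 CPM in Drp1 KO (mean ± SD of 3 libraries), a log2 FC of 0.52 (SE 0.0894, adjusted p = 0.0118, edgeR). *Tlr3*, the endosomal receptor for double-stranded RNA that signals through TRIF, rose from 6.64, 8.40 and 9.13 CPM to 12.7, 15.9 and 21.5 CPM, a log2 FC of 1.05 (SE 0.202, adjusted p = 0.0211). *Peli2*, a ubiquitin ligase that acts on IRAK kinases, fell from 63.5, 68.6 and 71.8 CPM to 50.8, 44.2 and 48.3 CPM, a log2 FC of -0.51 (SE 0.0983, adjusted p = 0.0217). The groups did not overlap for any of the 3. None of these calls held when WT library 2, WT library 3 or library 2 of Drp1 KO was left out, each with 3 libraries against 2, and the adjusted p was then 0.122, 0.0975 and 0.0536 for *Cd180*, 0.106, 0.0618 and 0.0794 for *Tlr3*, and 0.109, 0.106 and 0.115 for *Peli2*. *Tlr3* and *Peli2* also lost the call without library 3 of Drp1 KO (0.0621 and 0.0628) and with length-scaled counts (0.0962 and 0.112), where the log2 FC of *Tlr3* was 0.76. With libraries paired by number 10 of the 39 passed, 7 higher and 3 lower, beside 12.0% of all genes. Over the 39 genes the median log2 FC was 0.05, with 23 above 0.

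The 10 that passed with pairing were these 3 and another 7, which the unpaired edgeR test did not call. Of these 7, the endosomal RNA receptor *Tlr7* (unpaired log2 FC 0.56, paired adjusted p = 0.00164), the kinase *Irak2* (likewise 0.48 and 0.0059), the adaptor *Pik3ap1* (0.37, 0.0123), the ubiquitin ligase *Traf6* (0.31, 0.0209) and *Tollip* (0.27, 0.0328), an inhibitor of IRAK signalling, were higher. *Irak4*, the kinase that MyD88 recruits (-0.37, 0.0161), and *Hsp90b1*, the chaperone that folds TLRs (-0.37, 0.0126), were lower. *Tlr7*, *Irak2*, *Pik3ap1* and *Tollip* were singled out after their values were seen. Without pairing the adjusted p of the 7 was 0.0603 to 0.406. *Irak4* was at 63.4, 66.6 and 63.3 CPM in WT and 54.5, 46.1 and 49.4 CPM in Drp1 KO libraries, without overlap. *Unc93b1*, which carries endosomal TLRs, was at a log2 FC of 0.01 (SE 0.11), and the bridging adaptors *Tirap* and *Ticam2* were at 0.20 and -0.06 (SE 0.134 and 0.0981). The log2 FC of *Ly86*, the partner of CD180, was 0.32, of *Traf3* 0.06, of the co-receptor *Cd36* 0.02, of the TLR chaperone *Cnpy3* -0.02 and of *Lbp*, which binds lipopolysaccharide, -0.08, and none of these genes from *Unc93b1* on passed in either fit.

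Genes known to be induced downstream of the adaptors were counted as well. Of 20 genes of the MyD88 arm, 18 could be tested and 1 passed, *Marco*, a scavenger receptor, which fell from 254, 124 and 82.7 CPM to 41.4, 21.9 and 24.7 CPM (log2 FC -2.39, SE 0.38, adjusted p = 0.00799, edgeR, and 0.0575 without Drp1 KO library 2). That is near the 3.36% of all genes that passed and is no result about this arm. With libraries paired by number 4 of the 18 passed, 2 higher, *Nfkbiz* and *Socs3*, and 2 lower, *Nfkbia* and *Marco* (paired adjusted p = 0.00765, 0.0162, 0.0152 and 9.29e-06), beside 12.0% of all genes, and the first 3 of these were named after their values were seen. Over the 18 the median log2 FC was 0.24, and 0.19 without the 1 gene at the count floor. Of 8 genes of the TRIF and interferon arm, 7 could be tested and 6 passed, each higher, beside 2.29% of all genes in that direction, with a median log2 fold change of 2.06. With pairing 7 of the 7 passed. Both lists of induced genes were chosen with earlier results of these data known, so these counts are a description and test neither arm. The part of TRIF in these values was not tested. *Irf7*, a transcription factor of the interferon response, rose from 74.6, 21.2 and 19.3 CPM to 349, 355 and 271 CPM, a log2 FC of 3.09 (SE 0.452, adjusted p = 0.00554). WT library 1 stood above the other WT libraries, and without it the log2 FC of *Irf7* was 4.0. *Ifit1*, *Ifit2*, *Rsad2* and *Isg15*, antiviral genes, rose by log2 fold changes of 2.22, 2.22, 2.06 and 2.06, and the chemokine *Ccl5* by 1.31. Drp1 KO library 1 was the lowest of its group for each of these antiviral genes, though above every WT library. *Ifit1* was at 95.4, 175 and 183 CPM and *Ifit2* at 545, 927 and 954 CPM in Drp1 KO libraries 1 to 3. The call of *Ccl5* was lost when WT library 2 (adjusted p = 0.0981), WT library 3 (0.0685) or library 2 of Drp1 KO (0.101) was left out. *Ifnb1*, the gene of interferon-β, did not reach the filter of 10 counts.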

How the data were processed

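Poly(A) RNA of 3 WT and 3 Drp1 KO BMDM libraries was sequenced with paired-end reads. The authors quantified the reads with kallisto 0.46.1 against Ensembl cDNA of GRCm39 and deposited, for each transcript, an estimated count, which is not whole and not scaled between libraries, and a TPM value, scaled within a library and per effective length. The Ensembl release and use of strand are not given in the sources used here. Transcripts were matched by identifier to GENCODE M39 of GRCm39 (99.4% of 116873), and 0.542% to 0.575% of a library's counts fell on others and were left out. Of the 27 transcripts of the 10 genes, 12 have another length in the files than in this annotation, so levels per length follow the files.

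Estimated counts were summed per gene and rounded. Genes with at least 10 counts in total were tested with edgeR 4.0.16 in R 4.3.3 (TMM, quasi-likelihood test, no covariate, standard error as fold change over the square root of F, Benjamini-Hochberg adjustment). CPM are counts scaled to the normalized library size. A count of 3 corresponds to 0.0917 to 0.136 CPM, and covers counting error only. The test was first tested on simulated data. Alternatives were DESeq2 1.42.0, limma-voom 3.58.1, median-of-ratios factors, library size only, filterByExpr, no filter beyond 1 count, length-scaled counts, a replicate block, each library left out, and, added after the data were seen, the block with length-scaled counts. Same-numbered libraries deviated together (r = 0.204 to 0.51 over 12248 genes, each over 0.1), so the numbers were taken as pairs, although WT library 2 and Drp1 KO library 3 reached r = 0.326, above both the libraries 2 (0.204) and the libraries 3 (0.298). No source used here says that the numbers mark a shared animal or day, and the pairs were judged on the values that were then tested. The members and lists were chosen with earlier results of these data known. All 10 members were named, with each gene of the other lists that passed and proteins binding a member.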

Additional observations from a re-analysis of the deposited data

How the results depend on the processing

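Over 15 other settings *Tlr1* kept its direction, and its log2 fold change was 0.53 with length-scaled counts and 0.67 to 0.71 with a library left out. The number of the 10 genes past the test was 1 without pairing, 4 with the replicate block, 3 with the block and length-scaled counts, 3 with the study's criteria, 0 with length-scaled counts, and 0 to 1 with a library left out. With the replicate block the log2 fold changes that passed were 0.69 for *Tlr1*, -0.35 for *Tlr2*, 0.34 for *Tlr8* and 0.31 for *Tlr13*, and with length-scaled counts in the block 0.53 for *Tlr1*, 0.40 for *Tlr8* and 0.31 for *Tlr13*. The block changed no other call of the 10 genes. With a library left out, *Tlr2* ran from -0.46 to -0.28, *Tlr8* from 0.21 to 0.49, *Tlr13* from 0.21 to 0.37, *Cd14* from 0.0072 to 0.36 and *Myd88* from 0.15 to 0.28. The direction turned for *Tlr6* (-0.15 to 0.00082), *Tlr4* (-0.04 to 0.09), *Ly96* (-0.18 to 0.11) and *Ticam1* (-0.19 to 0.15). *Ticam1* was also at -0.00015 with DESeq2, -0.0065 with limma-voom, -0.00064 with median-of-ratios factors, -0.0042 with library size only and -0.0019 with filterByExpr. The count for the 39 pathway genes, 3, was 7 with DESeq2, 5 with library size only, 5 with no filter beyond 1 count, 1 with length-scaled counts, 10 with the replicate block, 8 with the block and length-scaled counts, 8 with the study's criteria and 0 to 5 with a library left out. The count for the induced genes, 7, was 11 with the replicate block, 12 with the study's criteria and 5 to 8 with a library left out, and the median of that list, 0.42, ran from 0.19 to 0.72. The ratios kept their direction in CPM. With a library left out, that of *Tlr1* to *Tlr6* differed by 0.71 to 0.91 on the log2 scale and that of *Tlr1* to *Tlr2* by 0.78 to 1.01, while *Tlr6* to *Tlr2* (-0.11 to 0.28), *Cd14* to *Tlr4* (-0.12 to 0.25) and *Ly96* to *Tlr4* (-0.32 to 0.02) turned. The causes were not tested. Depth limits *Ly96* most, at 150 counts in WT library 1, and reads shared by *Tlr1* and *Tlr6* cannot be assigned by depth.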
